A study of Fragaria x ananassa with 6 samples.

Results

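FaPRE1 and FabHLH1 are the only 2 features on a custom strawberry oligonucleotide array whose names mark helix-loop-helix regulators, out of 35118 features. Of these features, 34797 carry only a gene model identifier, which names no family. Whether other helix-loop-helix genes are among them was not examined. They were taken by name, as every spot annotated FaPRE1 or FabHLH1 that is not a control spot. FaPRE1 was read by 1 probe (FragP00002639) in 2 spots on each array, and FabHLH1 by 1 probe (CUST_35065_PI427405940) in 1 spot. The sources used here give no chromosome, position or sequence for either gene, and 0 of the 2 symbols matched the reference gene table.

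Total RNA came from floral buds of cultivated strawberry, Fragaria x ananassa, in 2 groups of 3 samples. FaPRE1-OX buds carried a FaPRE1 overexpression construct in the vector pK7WG2, delivered by Agrobacterium tumefaciens strain AGL0, and were labelled as having an elongated floral bud phenotype. Control buds carried the empty vector and were labelled as normal. One FaPRE1-OX and 1 control sample shared each of 3 two-colour arrays, with FaPRE1-OX in Cy3 on arrays 1 and 3 and in Cy5 on array 2. The vector drives its insert from a constitutive viral promoter. The labels describe RNA of independent buds without saying how many transgenic lines or plants stood behind them, so a p-value here reflects only how far these samples differed among themselves, possibly for technical reasons. The token PRE3 stands in the FaPRE1-OX sample titles, whereas every other label names FaPRE1.

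Basic helix-loop-helix proteins regulate transcription as dimers, with the helix-loop-helix part pairing 2 proteins and the basic part touching DNA. PRE proteins are small members that lack a working basic part and act by pairing with other family members. In Arabidopsis, PRE1 pairs with the repressor IBH1, which frees other helix-loop-helix activators, and raises cell elongation in response to gibberellin and brassinosteroid. The symbol FabHLH1 names a family, and the sources used here give it no specific role.

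All 3 arrays lay on 1 slide and were read in 1 scan. Between 57.7% and 67.2% of spots were well above background in FaPRE1-OX samples, and between 62.8% and 67.4% in controls. Across all 23385 genes tested, the log2 ratios of arrays 1 and 2 correlated at 0.96, against 0.65 for arrays 1 and 3 and 0.62 for arrays 2 and 3. The floral symbols FaYabby and FaAP2(1) were well above background in all 6 samples. Of 6 symbols associated with ripe fruit, FaQR, FaPLB and FaGalur were well above background in all 6 samples, Famyb10 and FaAAT3 in 0, and FaRGL1 in 1 control.

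FaPRE1 was clearly lit in every FaPRE1-OX sample and lay at the edge of detection in the controls. Its 2 spots had median intensities of 319 and 324 scanner units in FaPRE1-OX 1, where the local background was 43 and 46. FaPRE1-OX 2 gave 603 and 607 units over a background of 78 and 75. FaPRE1-OX 3 gave 184 and 201.5 units over a background of 41 at both spots. The 6 spots of the FaPRE1-OX samples therefore all stood several times above the glass around them, lowest in FaPRE1-OX 3.

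Control 1 gave 88 and 86 units for the FaPRE1 spots over a background of 81 and 85. Control 2 gave 60 and 57.5 units over 43 and 40.5. Control 3 gave 96 and 74.5 units over 71 at both spots. The scanner software called all 6 FaPRE1-OX spots well above background, and 1 of the 6 control spots, the first spot of control 3. In bulk tissue, more cells with the transcript and more transcript per cell cannot be told apart.

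**Figure D1:**
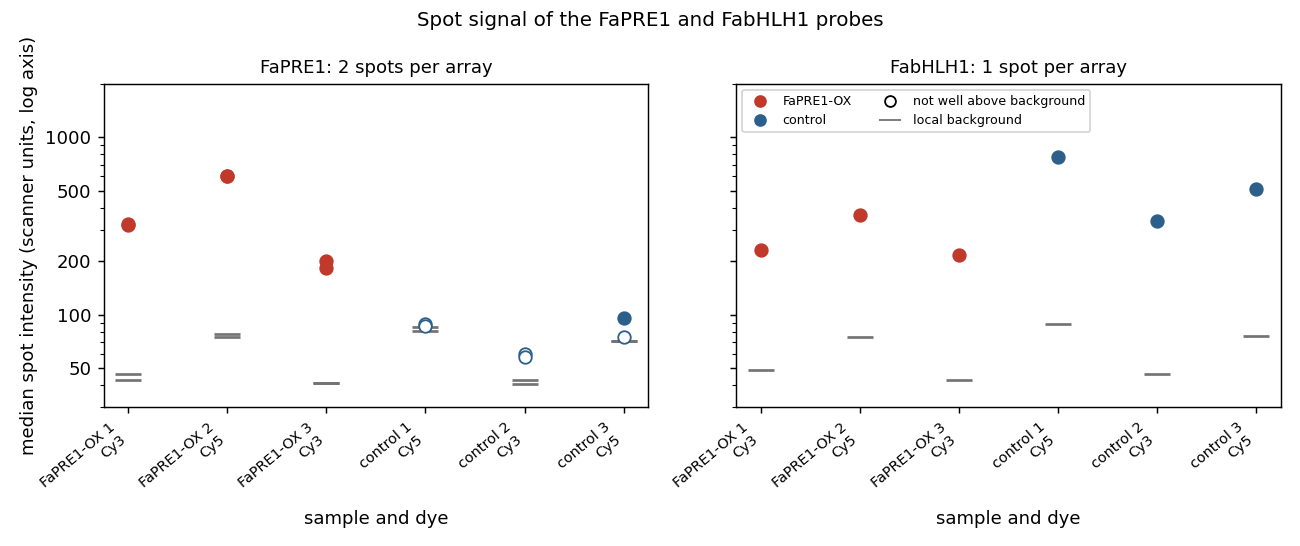
Median spot intensity (scanner units, log axis) of FaPRE1 and FabHLH1 in each sample, FaPRE1-OX in red and control in blue, with the dye under each name. Open circles are spots not well above background and grey bars the local background; the FaPRE1 spots of controls lie between 57.5 and 96 units, close to that background, while those of FaPRE1-OX lie between 184 and 607.

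The array's 308 negative control spots, which are not meant to bind any transcript, gave a second yardstick for the dim FaPRE1 spots. After subtraction of local background, each FaPRE1-OX spot exceeded 100% of the negative control spots of its own sample and dye. The FaPRE1 spots exceeded 99.0% and 95.1% of them in control 1, 98.4% at both spots in control 2, and 100% and 94.5% in control 3. The control signal of FaPRE1 was thus in the upper tail of the negative spots without standing clear of them in every spot.

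The scanner's own processed signal, which is background-subtracted and dye-normalized, carries an error estimate for each spot. For FaPRE1 it was 838 ± 84.3 and 883 ± 88.9 in FaPRE1-OX 1, 849 ± 85.1 and 869 ± 87.2 in FaPRE1-OX 2, and 339 ± 35.4 and 399 ± 41.3 in FaPRE1-OX 3. The corresponding control values were 17.8 ± 7.35 and 21.8 ± 7.77 in control 1, 10.00 ± 10.1 and 19.8 ± 10.7 in control 2, and 42.8 ± 7.84 and 6.87 ± 6.91 in control 3. At 1 spot of control 2 and 1 spot of control 3 the error was at least as large as the signal. Ratios of processed signals divide by such values.

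After background correction, loess within arrays and scaling between arrays, FaPRE1 levels (log2 units) were 8.59, 8.74 and 8.04 in the FaPRE1-OX samples. They were 6.09, 6.64 and 6.37 in the controls numbered 1 to 3. The groups did not overlap, and the lowest FaPRE1-OX sample lay 1.40 log2 units above the highest control. All FaPRE1-OX levels exceeded all control levels for 20.6% of the genes tested. The group means were 8.46 ± 0.37 in FaPRE1-OX and 6.37 ± 0.28 in control (SD, n = 3 each). Although 2 of the 3 controls did not measure FaPRE1 above background, their levels were not below the lowest level of any probe called well above background there (5.76 in control 1 and 6.08 in control 2).

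Among the 35337 probes of a sample, the FaPRE1 probe ranked 10142, 10082 and 12084 from the brightest in FaPRE1-OX 1, 2 and 3. The rank was 25652, 26074 and 24413 in controls 1, 2 and 3. Expressed as the share of probes with a lower signal, this was a percentile of 69.5 ± 3.23 in FaPRE1-OX and 27.9 ± 2.53 in control (SD, n = 3 each). FaPRE1 therefore sat in the brighter part of the array in FaPRE1-OX buds without being among its most intense probes. Ranked on the normalized level, the percentiles spread more widely in controls (7.28, 40.7 and 29.9) than in FaPRE1-OX (71.1, 72.7 and 64.1).

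**Figure D2:**
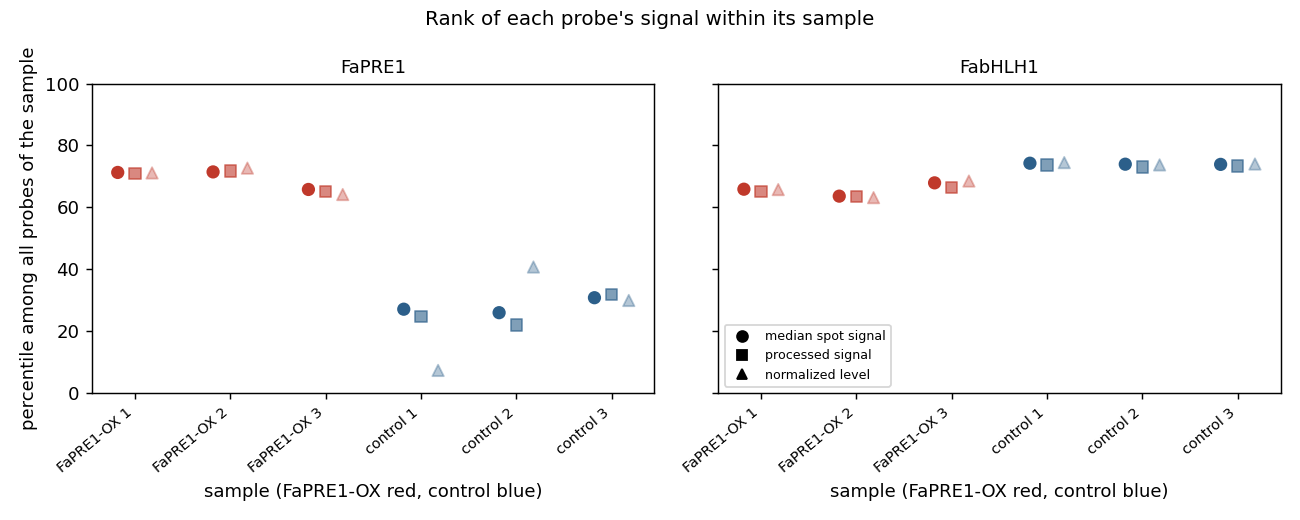
Percentile of each gene's probe among all probes of its sample (y axis, percent of probes with a lower signal) for the 3 FaPRE1-OX samples (red) and the 3 controls (blue), ranked on median spot signal (circles), processed signal (squares) and normalized level (triangles). FaPRE1 moved between 65.8 and 71.5 in FaPRE1-OX and between 26.0 and 30.8 in control on median spot signal, whereas FabHLH1 lay between 63.6 and 67.9 in FaPRE1-OX and between 73.9 and 74.3 in control.

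Within each array the FaPRE1 signal of the FaPRE1-OX sample was divided by that of the control on the same glass. On the log2 scale the ratios at the 2 spots were 2.45 and 2.55 on array 1, 2.09 and 2.11 on array 2, and 1.44 and 1.90 on array 3. Duplicate spots of all probes differed with an SD of 0.130, 0.145 and 0.148 on arrays 1, 2 and 3. The pair of FaPRE1 spots was closest on array 2 and farthest apart on array 3, where the first control spot was the one above background.

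Averaged over spots, the FaPRE1 ratio was 2.50 on array 1, 2.10 on array 2 and 1.67 on array 3. On arrays 1 and 2 the control spots were not well above background, so these values hold for the offset of 50 added in background correction and are given without a fold. The ratio was above 0 on all 3 arrays, as it was for 28.4% of the genes tested. Counted from the most raised gene, FaPRE1 took rank 42, 70 and 112 of 23385 on arrays 1, 2 and 3, and rank 8, 7 and 24 on the scanner's processed signals. Spots within 10 rows and columns of the FaPRE1 spots had median log2 ratios between -0.05 and 0.05 on all arrays (429 and 439 spots).

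In the limma fit with a dye term, FaPRE1 was 2.09 ± 0.23 log2 units higher in FaPRE1-OX than in control (SE, 3 arrays; 95% interval 1.41 to 2.77), again for an offset of 50. Its adjusted p was 0.0645 by limma (Benjamini-Hochberg over 23385 genes), so it did not pass the threshold of 0.05. FaPRE1 was among the genes tested because of its signal in the 3 FaPRE1-OX samples, and with no filter on dim probes its adjusted p was 0.0990 by limma. In this fit 0 genes passed in either direction (0% of those tested), while 6765 had an unadjusted p under 0.05. Without the dye term the FaPRE1 difference was 2.09 ± 0.18 with an adjusted p of 0.00818 by limma, in a fit that called 9.79% of genes higher and 12.8% lower. Exact two-sided permutation of the 6 samples gave p = 0.1, and exact sign flips of the 3 array ratios gave p = 0.25, each the smallest value that test can give here.

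**Figure D3:**
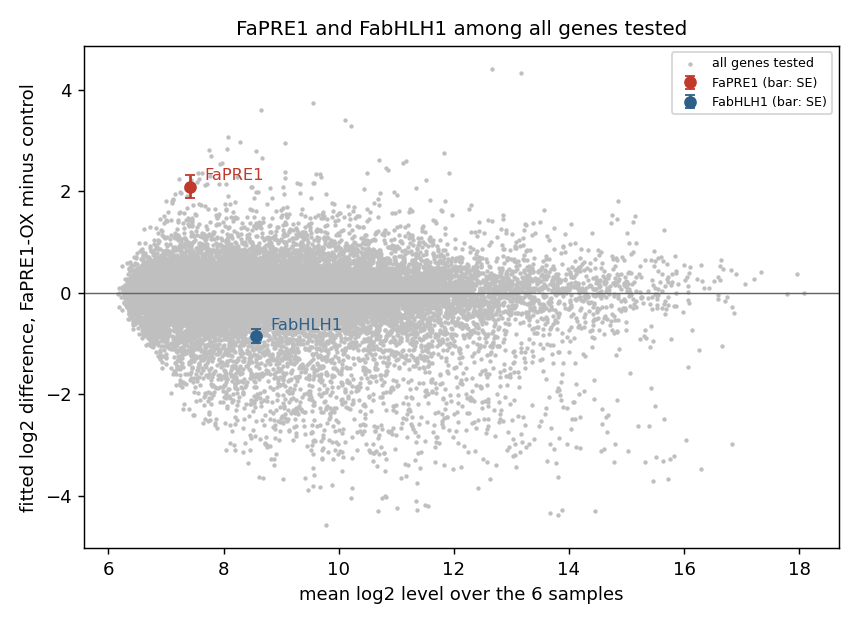
Fitted log2 difference, FaPRE1-OX minus control (y axis), against mean log2 level over the 6 samples (x axis) for the 23385 genes tested (grey), with FaPRE1 (red) and FabHLH1 (blue) and their standard errors as bars. FaPRE1 lies at 2.09, near the upper edge of genes of its level, and FabHLH1 at -0.86, inside the lower part of the cloud.

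By fitted increase FaPRE1 took rank 48 of 23385. Among the 2601 genes with a mean level within 0.25 log2 units of that of FaPRE1, 7 had a higher fitted difference (0.269%), and the median of those genes was -0.02. That mean level averages 8.46 in FaPRE1-OX with 6.37, near background, in control. FaPRE1 is the gene of the construct and was tested through its FaPRE1-OX signal, so these places describe it and test nothing. Without a probe sequence, whether this probe reads the vector-driven transcript, that of the plant's own FaPRE1 gene, or both was not tested. The FaPRE1 ratio of array 3 minus the mean of arrays 1 and 2 was -0.63, a gap that 16.8% of genes exceeded. Arrays 1 and 2 themselves differed by 0.40 for FaPRE1, a gap that 3.83% of genes exceeded.

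The size of the FaPRE1 increase depended on how the dim control signal was treated. With normexp background correction and no offset, the ratios on arrays 1, 2 and 3 were 3.65, 3.33 and 2.84. With the scanner's processed signals they were 5.45, 5.93 and 4.42, over control values that at some spots did not exceed their own error. Without any background correction they were 2.69, 2.33 and 1.77. The direction was the same on every array in all 6 treatments of the signal, and the fold changed with the treatment.

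**Figure D4:**
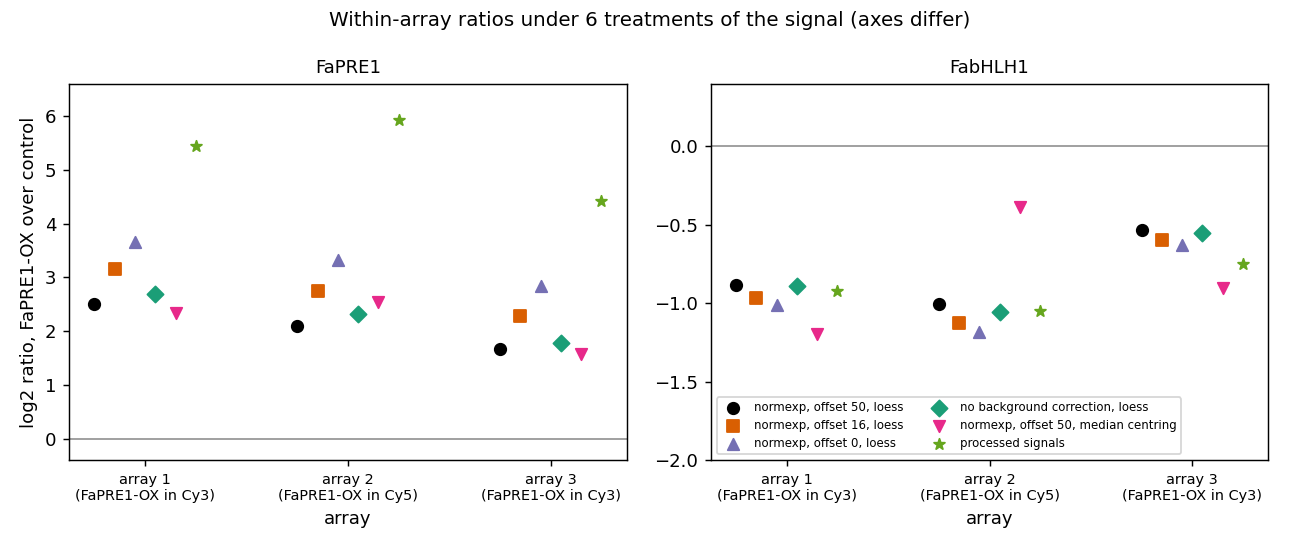
Log2 ratio of FaPRE1-OX over control on each array (x axis, with the dye of the FaPRE1-OX sample) under 6 treatments of the signal, for FaPRE1 and FabHLH1 on different y axes. FaPRE1 ratios ranged from 1.57 to 5.93 and FabHLH1 ratios from -1.20 to -0.38, with 0 marked by the grey line.

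FabHLH1 gave a signal well above background in every sample and was lower in all 3 FaPRE1-OX buds than in any control once the dyes were balanced. Its single spot had median intensities of 230.5, 365 and 217.5 units in FaPRE1-OX 1, 2 and 3, over backgrounds of 49, 75 and 43. Controls 1, 2 and 3 gave 767.5, 334.5 and 509.5 units over 88, 46 and 75.5. These raw values mix the dyes, and on array 2, where the dyes were exchanged, the raw value of FaPRE1-OX 2 was above that of control 2. The scanner software marked the local background around the spot as uneven in FaPRE1-OX 1.

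The processed signal of FabHLH1, already balanced between dyes, was 549 ± 55.7, 459 ± 46.3 and 410 ± 42.1 in FaPRE1-OX 1, 2 and 3. In controls 1, 2 and 3 it was 1042 ± 104, 950 ± 95.5 and 688 ± 69.1. Every FaPRE1-OX value lay below every control value, and the lowest control and the highest FaPRE1-OX sample were on different arrays.

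Normalized FabHLH1 levels were 8.13, 7.93 and 8.40 log2 units in FaPRE1-OX 1, 2 and 3. Controls 1, 2 and 3 stood at 9.01, 8.93 and 8.93. The means were 8.15 ± 0.24 in FaPRE1-OX and 8.96 ± 0.05 in control (SD, n = 3 each), with a gap of 0.53 between the nearest samples of the groups. Complete separation in that direction was found for 25.2% of the genes tested. On these levels the 3 controls were tightly grouped and the FaPRE1-OX buds spread more. On processed signals the controls were not tightly grouped, running from 688 to 1042, against 410 to 549 in FaPRE1-OX.

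The FabHLH1 probe ranked 12054, 12851 and 11324 of 35337 in FaPRE1-OX 1, 2 and 3, and 9089, 9195 and 9220 in controls 1, 2 and 3. Its percentile was 65.8 ± 2.15 in FaPRE1-OX and 74.0 ± 0.202 in control (SD, n = 3 each). The probe kept a place in the brighter part of the array in both groups.

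The within-array log2 ratio of FabHLH1 was -0.88 on array 1, -1.003 on array 2 and -0.53 on array 3. These are signals 1.84-fold, 2.00-fold and 1.45-fold lower in FaPRE1-OX. A ratio below 0 on all 3 arrays was shared by 32.2% of the genes tested. From the most lowered gene, FabHLH1 took rank 2326, 1900 and 2607 of 23385, and the 428 spots around it had median ratios between -0.05 and 0.06.

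In the limma fit with a dye term the FabHLH1 difference was -0.86 ± 0.14 log2 units (SE, 3 arrays; 95% interval -1.27 to -0.44), a signal 1.81-fold lower in FaPRE1-OX. The adjusted p was 0.0840 by limma, short of the threshold. Without the dye term it was -0.81 ± 0.12 with an adjusted p of 0.0209 by limma. The exact two-sided permutation p was 0.1 over samples and 0.25 over arrays, again the smallest that each allows. Of 2006 genes within 0.25 log2 units of its mean level, 180 had a lower fitted difference (8.97%).

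The fitted dye coefficient (log2 units) was -0.15 for FabHLH1 and 0.007 for FaPRE1. With median centring in place of loess, the FabHLH1 ratio was -1.20, -0.38 and -0.90 on arrays 1, 2 and 3, while the median of all genes tested stood at -0.26, 0.40 and -0.25 there. Relative to those medians the FabHLH1 ratio was -0.94, -0.79 and -0.65. The FabHLH1 ratio of array 3 minus the mean of arrays 1 and 2 was 0.41, a gap that 30.8% of genes exceeded.

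Genes with the ratio profile most like that of each regulator were found by the root mean square difference of the log2 ratios over the 3 arrays, among 23384 other genes. Within a distance of 0.25 lay 13 genes (0.0556%) for FaPRE1 and 752 genes (3.22%) for FabHLH1. Few genes have ratios as large as those of FaPRE1, so these counts follow from the size of the ratios as well as their shape. The comparison rests on 3 arrays, and each ratio shares its array and its pair of samples with every other gene's. Only ratios made with the main offset in background correction were compared. With no offset the FaPRE1 ratios on arrays 1, 2 and 3 were 3.65, 3.33 and 2.84. Whether the counts and the nearest genes stay the same without the offset was not tested.

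Nearest to FaPRE1 were the gene models gene26161, at a distance of 0.083, and gene29955, at 0.087. The ratios of gene26161 were 2.45, 2.12 and 1.80 on arrays 1, 2 and 3, with mean levels of 8.75 ± 0.25 in FaPRE1-OX and 6.62 ± 0.29 in control. Those of gene29955 were 2.44, 1.98 and 1.74, with mean levels of 8.37 ± 0.36 in FaPRE1-OX and 6.31 ± 0.31 in control (SD, n = 3 each for both genes). Both control means lay near that of FaPRE1 (6.37), so these ratios, too, hold for the offset used.

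Among gene symbols, the nearest to FaPRE1 at the offset used was FaPLB, a pectate lyase, an enzyme that cuts pectin of the cell wall. Its ratios were 2.04, 2.40 and 1.74 on arrays 1, 2 and 3, a distance of 0.318 and rank 21 among all genes. FaPLB averaged 10.37 ± 0.24 in FaPRE1-OX and 8.30 ± 0.13 in control (log2 level, SD, n = 3 each). The next symbol was FaDFR1C, named for dihydroflavonol reductase of the flavonoid pathway, at a distance of 0.859 and rank 210. FaDFR1C differed in shape, with ratios of 1.46, 1.30 and 2.38 and its highest value on array 3.

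**Figure D5:**
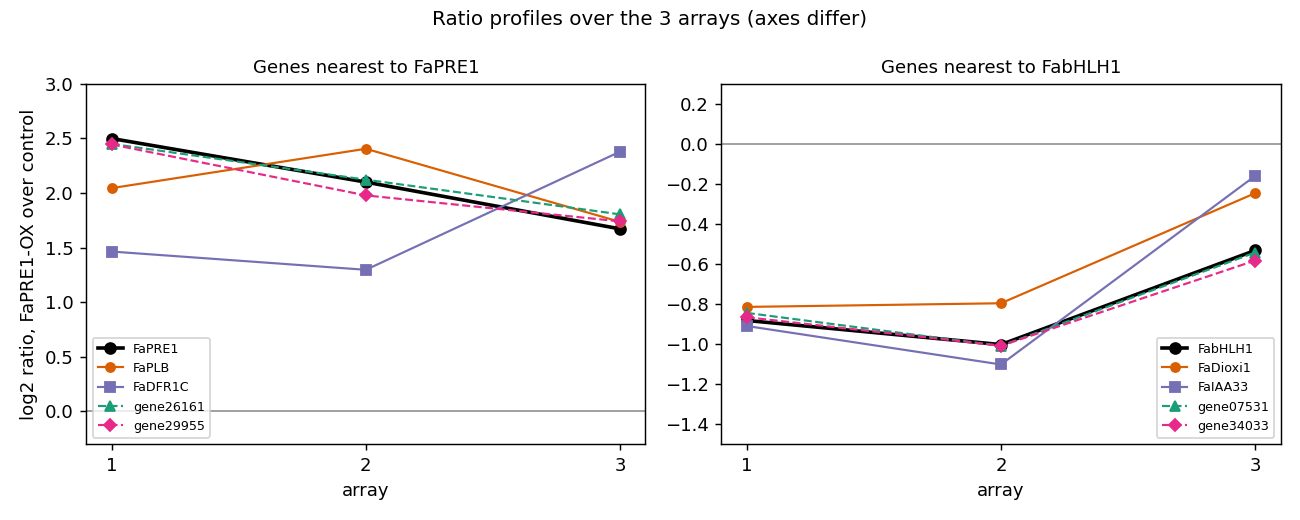
Log2 ratio of FaPRE1-OX over control on arrays 1 to 3 for FaPRE1 and FabHLH1 (black) and the 2 gene symbols (solid) and 2 gene models (dashed) nearest to each, on different y axes. The gene models nearest to FaPRE1 follow it within a distance of 0.087, while FaDFR1C (2.38 on array 3) departs from it.

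Nearest to FabHLH1 were gene07531 and gene34033, at distances of 0.023 and 0.031. The ratios of gene07531 were -0.84, -1.01 and -0.54, and those of gene34033 were -0.87, -1.01 and -0.58. The nearest symbols stood at rank 523 (FaDioxi1, distance 0.207) and rank 604 (FaIAA33, distance 0.223). FaIAA33, named for the Aux/IAA repressors of auxin signalling, had ratios of -0.91, -1.10 and -0.16, so it parted from FabHLH1 on array 3.

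Some basic helix-loop-helix proteins work with MYB proteins on genes of the flavonoid pathway. A list of 12 symbols on the array held a MYB partner and enzyme and transport genes of that pathway. Famyb10, a MYB regulator of anthocyanin genes in strawberry fruit, was well above background in 0 of 6 samples. Of the 10 members tested, 6 had a fitted difference above 0 and 4 below 0, with a median of 0.10 against -0.02 for all genes tested. With the dye term 0 of the 10 passed. Without it 3 were called higher and 1 lower, where 9.79% of all genes were called higher and 12.8% lower. FaDFR1 (0.98 ± 0.18, adjusted p = 0.0321 by limma), FaDFR1C (1.71 ± 0.24, adjusted p = 0.0183 by limma) and FaLAR (0.43 ± 0.08, adjusted p = 0.0325 by limma) rose in that fit. FaDFR1 and FaDFR1C share a name stem, and whether their probes read the same transcript was not tested. FaGST1, a glutathione transferase, was well above background in 3 controls and 0 FaPRE1-OX samples. Its mean normalized level was 1.40-fold lower in FaPRE1-OX, which is an estimate for the offset used and not a bound. The FaGST1 log2 ratios were -0.66, -0.50 and -0.31 on arrays 1, 2 and 3. FaGST1 was tested only through its signal in controls, and its adjusted p by limma was 0.0398 without the dye term and 0.144 with it.

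Of 4 symbols near hormone pathways in which PRE proteins are known to act, 3 were tested and 0 passed with or without the dye term, and their median difference was -0.11. FaGAST1 belongs by name to the GAST family of gibberellin-regulated small proteins. Its ratio was 1.33 on array 1, 1.41 on array 2 and -0.67 on array 3, so array 3 had the opposite sign. FaNCED3, of abscisic acid synthesis, was well above background in 0 of 6 samples. Of 6 regulator symbols, with Famyb10 and FaGRAS1 again among them, 5 were tested, 0 passed in either fit, and the median difference was -0.36. On array 3 FaNAC1 (0.26), FaAP2(1) (0.17) and FaGRAS1 (0.61) had positive ratios after negative ones on arrays 1 and 2. FaDof (-0.98) and FaYabby (-0.59) were negative on array 3. FaGRAS1, which is in both lists, was fitted at -0.11 with the dye term and at 0.02 when that term was left out.

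FaPRE1 and FabHLH1 had ratios of opposite sign on each of the 3 arrays, with FaPRE1 ratios from 1.67 to 2.50 and FabHLH1 ratios from -1.003 to -0.53. No relation between them was tested, since 3 arrays are too few for a correlation.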

How the data were processed

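Scanner output of 3 two-colour arrays was analysed. The authors deposited spot, local background and processed signals as linear intensity values for each channel, which the submitters' processing notes credit to Agilent Feature Extraction 10.7. Groups, replicate numbers and dyes came from the labels. Each array held 62976 spots, 61657 of them not controls, and 0 were saturated. Median spot intensities were corrected with normexp (offset 50) and normalized by loess within arrays in R 4.3.3 with limma 3.58.1. Mean spot signals were not used here. The offset pulls log2 ratios of dim probes towards 0. Levels are log2 values after loess and Aquantile. Spots flagged as outliers were left out, and spots were averaged per probe.

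Genes with a probe well above background in at least 3 of 6 samples were tested on within-array log2 ratios (lmFit and eBayes, two-sided, dye term, Benjamini-Hochberg adjustment). With 1 residual degree of freedom, array 2 weighs as much as the other arrays together. The fits were tested on simulated ratios in which the errors of the arrays were independent. Those ratios did not model signals near background or arrays that resemble each other, so such cases were not tested. The replicate number is a shared array in the labels, and deviations from group means correlated at 0.168, 0.179 and 0.135 within arrays 1, 2 and 3, so the ratio fit keeps array as the block. The number of arrays limits the precision. Named genes were both members, the 2 symbols and 2 gene models nearest to each in ratio profile, 3 short lists of symbols, and 2 marker lists (floral bud, ripe fruit). The rule for members uses names alone, but members and lists were chosen with earlier results of these data known. Alternatives covered background correction, offset, normalization, dye term, block, filter, flagged spots, and leaving out or averaging arrays. Use of 1 FaPRE1 spot alone was added after seeing the data.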

Additional observations from a re-analysis of the deposited data

How the results depend on the processing

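FaPRE1 was higher in FaPRE1-OX in 18 of 18 alternatives and passed the threshold in 9. FabHLH1 was lower in 17 of 17 and passed in 5. Over these, adjusted p (limma) ran from 6.96e-10 to 0.113 for FaPRE1 and from 6.77e-07 to 0.179 for FabHLH1. The FaPRE1 difference passed with no dye term (2.09), processed signals (5.43), offset 16 (2.74), offset 0 (3.29) and median centring (2.25). With no replicate block it was 2.09, with the array as a random effect 2.09, and after scaling to the 75th percentile, again with no replicate block, 5.44. FabHLH1 passed with no dye term (-0.81), no replicate block (-0.86), the array as a random effect (-0.86) and 75th percentile scaling without the block (-0.94). Leaving out 1 array, which also drops the dye term, gave FaPRE1 1.88 to 2.30 and FabHLH1 -0.94 to -0.71, and both passed only without array 3. The lowest adjusted p of both genes came from the fit without array 3. It rests on arrays 1 and 2, whose log2 ratios correlated at 0.96, and whether they read independent material was not tested. With arrays 1 and 2 averaged and no dye term, FaPRE1 was 1.98 (adjusted p = 0.0999 by limma). FabHLH1 was then -0.74 (adjusted p = 0.168 by limma), so neither passed. No value exists for FaPRE1 when all 6 samples must be above background, because the filter removes it. Its first spot alone gave 2.02 and its second 2.16. The mean FabHLH1 percentile in control was 73.4 on processed signals and 74.0 on median signals. The cause of these shifts was not tested.

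Genes called numbered 0 in the fit with the dye term, and 5289 with no dye term (43.3% higher in FaPRE1-OX). They numbered 1428 with processed signals (36.6% higher), 910 with offset 16, 1095 with offset 0, 1107 with median centring (40.5% higher) and 412 with scaling between arrays (20.6% higher). Without the replicate block there were 4239 calls, with the array as a random effect 5811, and after 75th percentile scaling without the block 4683 (52.3% higher). Leaving out 1 array, again with no dye term, gave between 0 and 13943 calls, with 13943 when array 3 was left out. With arrays 1 and 2 averaged and no dye term there were 0 calls. Without array 2, FaPRE1-OX was in Cy3 on both arrays left, so dye and construct cannot be told apart in that fit. The number of arrays limits all of these counts, and for FaPRE1 the control signal near background limits the fold.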
